A study of Homo sapiens with 6 samples.

Results

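The genes described here encode the proteins of the small (40S) subunit of the cytosolic ribosome. They were chosen by name from the GENCODE release 29 annotation: protein-coding symbols made of RPS and a number, with an optional letter, X, Y or L suffix, together with RPSA and FAU and without the RPS6K kinases. The rule found 35 of 19940 protein-coding genes. RNA contacts were mapped by eCLIP: RNA crosslinked to a protein is recovered with an antibody against it, sequenced, and set against an input library. All 6 libraries came from HEK293T, a line of human embryonic kidney origin expressing SV40 large T antigen, with 2 libraries each for G4PID, SF3B4 and input. G4PID is a biotin ligase directed to G-quadruplexes, which are stacked folds of guanine-rich nucleic acid. It was expressed from a transfected plasmid, the cells received 500 µM biotin for 30 min, and the protein was pulled down through its HA tag. The other antibody was raised against SF3B4 itself. The protocol text is the same for every sample, so it does not settle whether the SF3B4 and input cells were also transfected and labelled, nor whether the 2 libraries of a group were separate cultures. The data were 1 peak list per antibody, 3660 peaks for SF3B4 and 270 for G4PID. No value per library was given, so there is no replicate spread, the read depth is unknown, and every comparison is a description. Intervals in brackets are 95% Wilson intervals and cover counting error only. They treat the introns or peaks of a gene as independent, which they are not.

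Ribosomal protein genes are short, split by several introns and among the most heavily transcribed genes of dividing cells. Many of their introns also carry a small nucleolar RNA (snoRNA), which is released from the excised intron and guides modification or processing of other RNAs. SF3B4 is a subunit of SF3b, the part of the U2 small nuclear ribonucleoprotein that sits on the branch point region just before the 3' splice site while an intron is being prepared for removal.

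SF3B4 peaks lay in 28 of the 35 small-subunit genes, or 80.0% (64.1% to 90.0%), against a background of 9.36% of all protein-coding genes. These 28 genes held 60 peaks. The large-subunit (RPL) genes were at a like level, with a peak in 38 of 50, or 76.0% (62.6% to 85.7%), and 81 peaks; the difference between the subunits was not tested and the intervals overlap. G4PID peaks lay in 0 of the 35 genes and in 0 of 50 RPL genes, beside a background of 0.507%, so that 0 of 35 is close to what the background gives. The lists hold only peaks past the authors' thresholds, and a gene or intron without a peak is therefore not shown to be unbound. RNA amount was not measured in these files, and its part in the counts was not tested.

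Each peak carries the authors' log2 fold over input, a difference between immunoprecipitate and input and not a level of RNA. It is called the fold from here on and is always on the log2 scale. Over the 60 peaks it had a median of 4.28 (quartiles 3.78 to 4.84) and ran from 3.07 to 5.71. The median was 4.30 in the RPL genes and 3.93 over the whole SF3B4 list, whose highest value was 7.60. Among the 915 peaks of highest fold in the list were 22 of the 60 (36.7%, 25.6% to 49.3%). The background is by definition 915 of 3660 peaks, a share close to the lower end of this interval. Ranked by fold in the list, the member peaks ran from rank 90 to rank 3544 of 3660, so they were spread over most of it without reaching the top. The 7 genes without a peak included RPS26, RPS27, RPS27L, RPS29, RPS4Y1 and RPS4Y2. Another 9 genes held 1 peak, 11 held 2, 4 held 3, 3 held 4, and RPS4X alone held 5. At a fold of at least 4 the number of genes with a peak was 22, and at a −log10 p of at least 10 it was 18.

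The bound introns are the main subject of what follows, and the 3' ends of 6 of them are shown because they have some of the highest folds among the bound introns whose sequence could be read. Each line gives the last 80 bases of an intron, 5' to 3' on the transcribed strand and ending at the splice site, with the SF3B4 peak in capitals. Coordinates are hg38. The sequences come from GENCODE transcripts that span the intron.
RPS13 intron 1, chr11:17077478-17077557, minus strand: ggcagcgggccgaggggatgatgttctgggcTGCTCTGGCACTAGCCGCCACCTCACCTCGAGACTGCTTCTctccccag
RPS6 intron 1, chr9:19379619-19379698, minus strand: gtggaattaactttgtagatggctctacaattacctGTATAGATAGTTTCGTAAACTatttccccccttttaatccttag
RPS21 intron 4, chr20:62388229-62388308, plus strand: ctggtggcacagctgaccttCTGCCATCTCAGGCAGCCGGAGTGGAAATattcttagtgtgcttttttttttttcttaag
RPSA intron 4, chr3:39411569-39411648, plus strand: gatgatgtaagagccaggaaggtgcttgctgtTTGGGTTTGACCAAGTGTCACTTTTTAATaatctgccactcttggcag
RPS13 intron 3, chr11:17075624-17075703, minus strand: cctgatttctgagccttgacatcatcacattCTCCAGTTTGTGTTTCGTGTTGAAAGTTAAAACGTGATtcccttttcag
RPS24 intron 4, chr10:78040535-78040614, plus strand: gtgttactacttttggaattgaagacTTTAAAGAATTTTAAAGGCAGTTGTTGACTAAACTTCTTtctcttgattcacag

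In all 6 the capitals stop short of the terminal AG and begin within the 80 bases. The folds were 5.71 for RPS13 intron 1, 5.05 for RPS6, 4.95 for RPS21, 4.85 for RPSA, 4.84 for RPS13 intron 3 and 4.67 for RPS24. The footprint differed in width: it covered 21 nt in RPS6 intron 1 and 41 nt in RPS13 intron 1.

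This placement held over nearly all peaks in the small-subunit genes. All 60 peaks lay wholly within an intron of the reference transcript (100%, 94.0% to 100%), where 80 of 81 RPL peaks did and 1817 of the 3480 peaks in protein-coding genes (52.2%, 50.6% to 53.9%). Whole containment depends on peak width, and most of the other peaks were intronic by midpoint. On that measure the counts were 60 of 60, 80 of 81 and 3227 of 3480 (92.7%). Measured to the end of its own intron, the midpoint lay 10 to 60 nt upstream in 59 of 60 peaks (98.3%, 91.1% to 99.7%). The same held for 66 of 80 intronic RPL peaks (82.5%) and for 2381 of 3227 intronic peaks of all protein-coding genes (73.8%). The 59 midpoints in fact fell between 23 and 47 nt upstream, a range read off after the values were seen, into which 59 of 80 RPL peaks (73.8%) and 1563 of 3227 of all intronic peaks (48.4%) fell. Because the member peaks set this range, their own share in it was fixed and says nothing about spread. The median midpoint was 34 nt upstream (quartiles 31 to 38). It was 36 nt (quartiles 30.75 to 45) in RPL genes and 33 nt (quartiles 20 to 46) over all protein-coding genes. By these quartiles the positions in the small-subunit genes were more narrowly spread, although no test was made of this and peak widths differed as well. Peaks began a median of 52 nt upstream (38 to 88) and ended a median of 14 nt upstream (2 to 32), leaving out the 1 peak outside the window. Their median width was 39 nt, against 41 nt in RPL genes and 71 nt over the list.

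**Figure D1:**
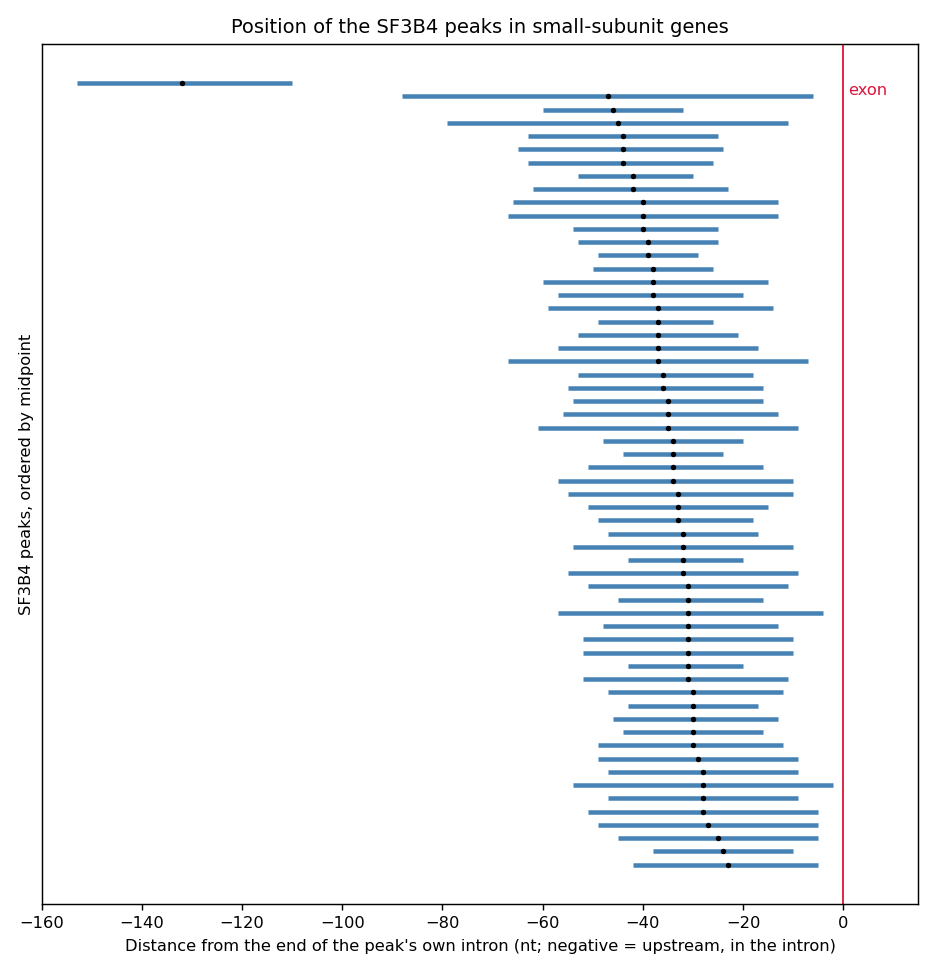
Each of the 60 SF3B4 peaks in small-subunit genes is a horizontal bar from its 5' to its 3' end, with a dot at the midpoint, against distance in nt from the end of its own intron (0, red line). The 59 lower midpoints sit between 23 and 47 nt upstream, and the top bar is the upstream peak of RPS21 intron 4 at 132 nt.

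The exception was RPS21, whose protein lies on the platform of the subunit. Its intron 4 was the only member intron with 2 peaks: a peak of fold 4.95 with its midpoint 46 nt upstream of the intron's end, and a weaker one of fold 3.65 at 132 nt.

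When distances were taken to the nearest 3' splice site of any basic transcript, the share within 10 to 60 nt was 55 of 60 (91.7%, 81.9% to 96.4%). The RPL genes were at 67 of 81 (82.7%) and all protein-coding genes at 2424 of 3480 (69.7%). The 4 further peaks that left the window lay close behind an alternative 3' splice site of their own gene. Their midpoints were 21 nt downstream of such a site in RPS3 intron 3, 28 nt in RPS3A intron 1, 15 nt in RPS15 intron 2 and 7 nt in RPS18 intron 1. For the intron end used by the reference transcript, the same 4 peaks sat 28, 31, 37 and 35 nt upstream. In these 4 introns the distance of the peak to the reference site was thus like that of the other members.

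The reference transcripts of the 35 genes have 156 introns, 3 to 6 per gene, and 59 of them held a peak midpoint (37.8%, 30.6% to 45.6%). The background is 1.73% of the reference introns of all protein-coding genes. Genes with no peak add only unbound introns, so a second comparison is within genes that have a peak: 59 of 127 introns (46.5%, 38.0% to 55.1%) in the small-subunit genes, against a background of 11.4%. Choosing genes by a peak fixes part of these shares, and a larger part where a gene has few introns. The 127 introns belong to 28 genes, while the background has 28569 introns in 1867 genes. The RPL genes stood at 73 of 226 introns (32.3%, 26.5% to 38.6%) with all genes counted. The peak calls did not cover all introns of a gene: 9 genes had more introns with a peak than without, none had a peak in every intron, and both introns held a peak in 20 of 121 neighbouring pairs. With 37.8% of introns bound, some such pairs arise in any case. Like counts for other genes are not given here, so these describe the members only.

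**Figure D2:**
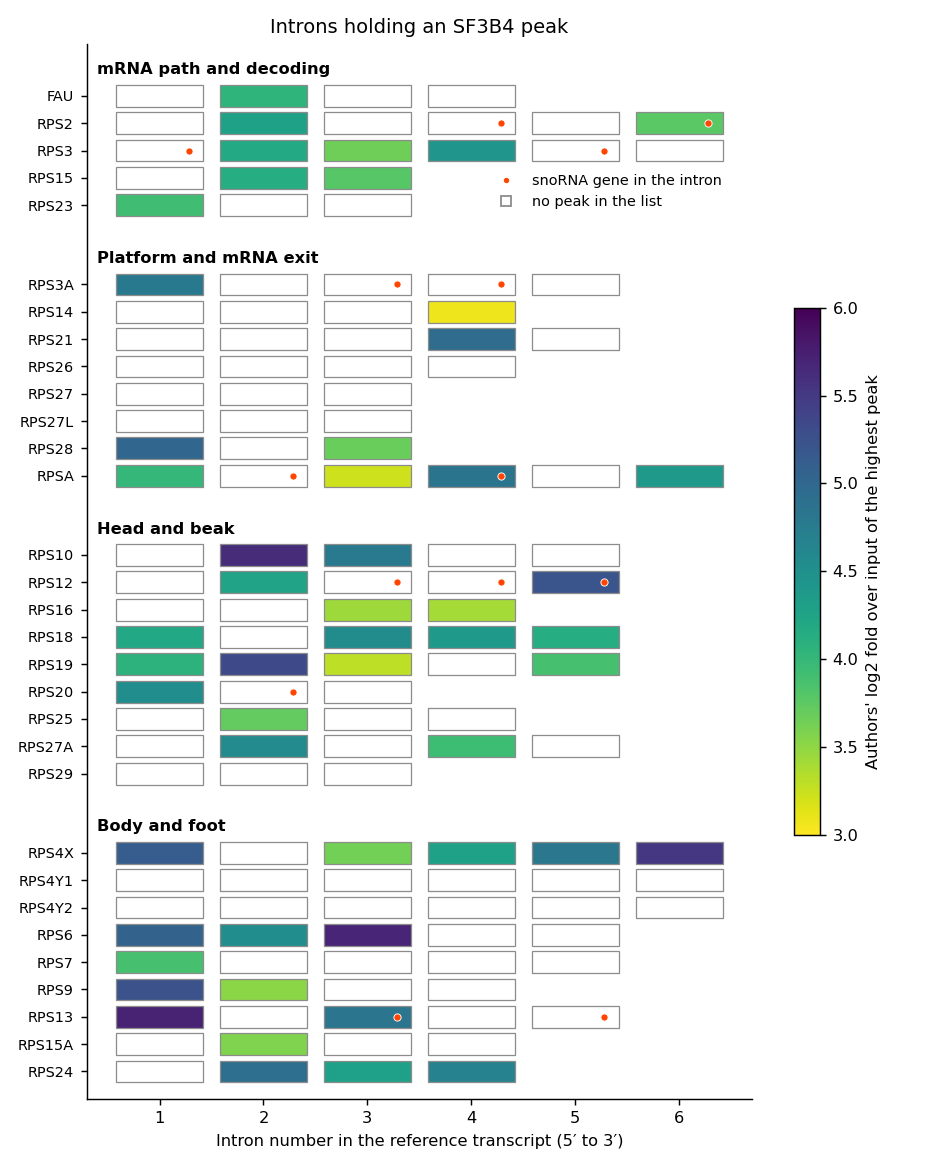
Rows are 31 of the 35 small-subunit genes by place of the protein in the subunit, and columns are introns of the reference transcript, numbered from the 5' end. Filled boxes hold an SF3B4 peak and are coloured by the authors' highest log2 fold over input, open boxes hold none, and orange dots mark snoRNA genes; RPS4X has the most filled boxes, 5 of 6.

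The proteins that line the mRNA path and the decoding site were encoded by 5 genes, and all 5 had a peak. Of their 22 introns 9 were bound, with a median fold of 4.05 (3.66 to 4.44), the narrowest range of the 4 groups. A range tends to widen with the number of peaks, and this group had the fewest, 9. RPS3, at the mRNA entry, had peaks in introns 2, 3 and 4 of 6, with folds of 4.18, 3.66 and 4.44. RPS2, its neighbour at the entry, had peaks in intron 2 (4.30) and in intron 6 (3.77), at −log10 p of 30.2 and 41.2. These are among the strongest p-values of the 60 peaks although the folds are ordinary. RPS15, whose tail reaches towards the decoding site, had peaks in introns 2 and 3 of 3, at 4.14 and 3.79. RPS23, which forms part of the decoding centre, had a peak only in intron 1 of 3 (3.93). FAU, whose product is a ubiquitin-like protein fused to ribosomal protein S30, had a peak only in intron 2 of 4 (4.05), an intron of 94 nt.

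The platform and mRNA exit group had the lowest share of members with a peak, 5 of 9, and 9 of 37 introns were bound. With only 5 to 11 genes in each of the groups, the order of their shares and median folds was not tested. Its 10 peaks had a median fold of 4.19 (3.08 to 5.01). RPSA, known also as the laminin receptor precursor, had peaks in introns 1, 3, 4 and 6 of 6, with folds of 3.997, 3.22, 4.85 and 4.38. RPS28, near the mRNA exit, had peaks in intron 1 (5.01) and intron 3 (3.69) of 3. Its first intron is only 86 nt long, and the peak covers 36 nt of it. RPS3A had a peak in intron 1 of 5 (4.79). RPS14, one of the genes lost in the 5q- syndrome, had a peak in the last of its 4 introns at 3.08, close to the lowest fold among the members. No peak lay in RPS26, RPS27 or the RPS27 paralogue RPS27L. RPS26 is among the genes mutated in Diamond-Blackfan anaemia, an inherited failure of red cell production caused by ribosomal protein mutations.

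Genes for the head and beak had a peak in 9 of 10 cases and in 20 of 43 introns. The median fold was 4.23, from 3.30 to 5.64. RPS19, the gene most often mutated in Diamond-Blackfan anaemia, had peaks in introns 1, 2, 3 and 5 of 5, with folds of 4.08, 5.34, 3.30 and 3.88. The weakest of these sat at the end of intron 3, which at 7818 nt is the longest bound intron of all members, with its midpoint 32 nt upstream of the 3' end, as near as in the shorter introns. RPS18, at the top of the head, had peaks in introns 1, 3, 4 and 5 of 5, at 4.20, 4.55, 4.37 and 4.15. Intron 3 of RPS18, with 81 nt, is the shortest bound intron. These genes thus carry the longest and the shortest intron with a peak.

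RPS10, a protein of the beak region, had the highest fold of the head group, 5.64 in intron 2 of 5, and 4.77 in intron 3. Both peaks also lie in the read-through gene RPS10-NUDT3, from which they cannot be told apart. RPS12, also of the beak, had 4.26 in intron 2 and 5.22 in intron 5 of 5. RPS16, whose tail reaches the transfer RNA in the peptidyl site, had peaks in introns 3 and 4 of 4, both low, at 3.436 and 3.405. RPS27A, made as a fusion with ubiquitin, had 4.58 in intron 2 and 3.94 in intron 4 of 5. RPS20 had a peak in intron 1 (4.53) and RPS25, which several viral internal ribosome entry sites depend on, in intron 2 (3.72). RPS29 had none.

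The body and foot group had the highest median fold of the 4 groups, a difference that was not tested, and, with the most peaks (21), the widest range. A peak lay in 9 of its 11 genes and 21 of 54 introns, and the median fold was 4.67, between 3.07, the lowest fold of all members, and 5.71, the highest. RPS4X, the X-linked S4 gene, had peaks in introns 1, 3, 4, 5 and 6 of 6, with folds of 5.13, 3.64, 4.30, 4.81 and 5.53. Its Y-linked copies RPS4Y1 and RPS4Y2, each with 6 introns, had none. Whether HEK293T carries or transcribes these copies was not measured here, so their lack of peaks is no contrast with RPS4X. They are counted in the 35 genes and 156 introns all the same. RPS6, the substrate of the S6 kinases, had peaks in introns 1, 2 and 3 of 5, at 5.05, 4.53 and 5.69, so that its 3 peaks were all above the median of the members. RPS13 had the highest fold of all, 5.71 in intron 1, and 4.84 in intron 3.

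RPS24, whose transcripts differ in their 3' end by alternative splicing, had peaks in introns 2, 3 and 4 of 4, at 4.93, 4.31 and 4.67. RPS9 had 5.24 in intron 1 and 3.53 in intron 2. RPS7, whose protein can also bind MDM2, had a peak in intron 1 (3.88). RPS15A had a peak in intron 2 (3.58), at a position shared with the gene AC138811.2.

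The p-values added little to this order. The most frequent −log10 p in the list, 15.7, was given to 13 of the 60 peaks and to 300 peaks in all, and 8 member peaks exceeded it. Among these were both peaks of RPS2 and single peaks of RPS15 (26.6), RPS4X (22.8) and RPS12 (18.5).

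Peaks were found at every place within the genes, at shares whose intervals overlap. First introns were bound in 13 of 35 genes (37.1%, 23.2% to 53.7%), inner introns in 34 of 86 (39.5%, 29.9% to 50.1%) and last introns in 12 of 35 (34.3%, 20.8% to 50.8%). Across all protein-coding genes with a peak the shares were 11.9%, 11.4% and 10.2%. Median fold was 4.53 in first introns (n = 13 peaks), 4.30 in inner (n = 35) and 3.85 in last introns (n = 12). Restricting the peaks to a fold of at least 4 left 25.7% of first, 27.9% of inner and 14.3% of last introns bound. At a −log10 p of at least 10 the shares were 20.0%, 30.2% and 22.9%, so that first and last introns changed order between these limits.

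The median length of the bound introns was 433 nt (quartiles 191 to 826.5), against 625 nt (256 to 1388) for the other introns, or 514 nt for the other introns of genes with a peak. By length, 13 of 23 introns under 150 nt held a peak (56.5%, 36.8% to 74.4%), 21 of 53 of 150 nt and more but under 500 nt (39.6%), 18 of 52 of 500 nt and more but under 1500 nt (34.6%) and 7 of 28 of 1500 nt or more (25%, 12.7% to 43.4%). The order was less steep within genes that have a peak, where the 4 shares were 59.1%, 45.7%, 42.9% and 41.2%. In all protein-coding genes with a peak they were 10.4%, 15.3%, 10.8% and 9.70%. In RPL genes, with all genes counted, they were 40.7%, 26.7%, 37.0% and 28.1%. Neither series falls steadily with length. The intervals of the shortest and the longest introns overlap. Median fold was 4.30 under 500 nt (n = 35) and 4.20 at 500 nt or more (n = 25).

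**Figure D3:**
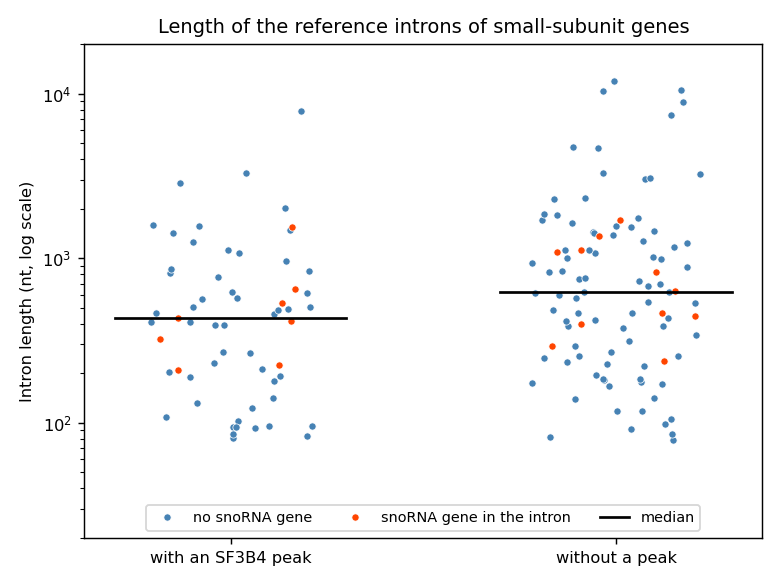
Length in nt (log axis) of the 156 reference introns of small-subunit genes, with and without an SF3B4 peak, 1 point per intron, with the median as a black line (433 and 625 nt) and snoRNA-holding introns in orange. The ranges of the groups overlap almost fully, from 81 to 7818 nt and from 79 to 11921 nt.

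Introns with a snoRNA gene and those without had shares of bound introns whose intervals overlap. The annotation places 19 snoRNA genes in 19 introns of 9 members, and 8 of these introns held a peak (42.1%, 23.1% to 63.7%), against 51 of the other 137 (37.2%, 29.6% to 45.6%). In RPL genes the shares were 9 of 38 (23.7%) and 64 of 188 (34.0%). No member peak overlapped a snoRNA gene. Every one of the 8 snoRNAs lay upstream of the peak of its intron, between the 5' splice site and the bound stretch. This order was fixed by the place of the peaks, which ended at most 32 nt before the intron's end and left too little room for a snoRNA. The gap from the end of the snoRNA gene to the peak was 11 nt for SNORA10 of RPS2, 77 nt for SNORA33 of RPS12, 106 nt for SNORD14B of RPS13 and 394 nt for SNORA62 of RPSA. Box C/D snoRNAs (SNORD) mostly guide methylation of ribosomal RNA and box H/ACA snoRNAs (SNORA) mostly guide its pseudouridylation. The 11 snoRNA introns without a peak included both of those in RPS3 (SNORD15A and SNORD15B) and both in RPS3A (SNORD73B and SNORD73A). Within a single gene the outcome could differ: RPS13 had a peak beside SNORD14B and none in the intron of SNORD14A.

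Sequence was known only where another annotated transcript runs through the intron, which gave 83 of the 156 intron ends, 33 of them bound. Annotated retention was at like shares in both classes: 26 of 59 bound introns (44.1%) and 40 of 97 others (41.2%) are kept in some annotated transcript. Over the 21 bases from 5 to 25 nt before the splice site, where the polypyrimidine tract is found, the median pyrimidine share was 76.2% in bound introns (n = 33, quartiles 66.7% to 81.0%) and 71.4% in the others (n = 50). One base of 21 makes that difference, and over 5 to 50 nt it turned, with 60.9% and 62.0%. The printed ends ranged from 12 pyrimidines of 21 in RPS13 intron 3 to 18 in RPS6 intron 1. These ends were chosen by fold, so the high fold of their peaks says nothing about the tract.

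The letters CTNA, a short form of the branch point consensus with the branch adenosine last, were searched on the transcribed strand, with all 4 letters 15 to 50 nt before the splice site. They occurred in 24 of 33 bound ends (72.7%, 55.8% to 84.9%) and 33 of 50 others (66.0%, 52.2% to 77.6%), against 59.3% of the 26679 searchable intron ends of all protein-coding genes. So short a motif is frequent by its length, and a match is not a branch point. Where it occurred in a bound end, the A nearest the splice site was a median of 26 nt upstream. In 22 of 24 such ends the A of at least 1 match lay inside the peak. The window searched, 15 to 50 nt, is nearly the span of the peaks, a median of 52 to 14 nt upstream. Any letters found in that window would thus mostly lie inside a peak, and the count says little about the motif. Of the 6 printed ends 3 hold CTNA, with the A at 25 nt in RPS13 intron 1 and RPS21 and at 23 nt in RPS24. In RPS13 intron 1 these letters are the CTCA within the capitals, and in RPS24 the CTAA. In RPS21 the match lies outside the peak, which ends 32 nt upstream of the splice site.

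A quadruplex motif, here 4 runs of at least 3 G on the transcribed strand and loops of 1 to 7 nt, occurred in 1 of 34 searchable windows of a member peak with 50 nt on either side, against 68 of 1529 (4.45%) for all SF3B4 peaks. It lay in RPS13 intron 1, chr11:17077541-17077566, minus strand, 14 nt upstream of the peak with the highest fold among the members. The motif is shown with the G runs in capitals because it is the only one among the members.
RPS13 intron 1 motif: GGGagtgtGGGcagcGGGccgaGGGG
No G4PID peak lay there, and none of the 35 member peaks with known sequence held a motif within the peak itself.

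The other genes of the pathway were RACK1, a 40S protein outside the naming rule, and 44 assembly factors of the small subunit. Of these 45 genes, 16 had an SF3B4 peak (35.6%, 23.2% to 50.2%) and 0 a G4PID peak, and 35 of their 649 introns were bound (5.39%). RACK1, the scaffold protein on the head of the subunit, had peaks in 6 of 7 introns and a highest fold of 5.01. That is more bound introns than in any member, where RPS4X had the most, 5 of 6. Among the assembly factors, the box C/D core proteins NOP56 and NOP58, which bind snoRNAs of the kind encoded in the member introns, had 5 and 2 peaks, up to 4.61 and 5.13. HEATR1, needed for transcription and early processing of ribosomal RNA, had 7 peaks (up to 4.53) over 6 of its 44 introns. The share of bound introns in the 45 genes was below the 37.8% of the small-subunit genes, with intervals that do not overlap. The folds named here lie in the range of the members, but they are the highest of a few chosen genes. The only peak of the assembly factor UTP6, at 3.02, was just below the lowest member fold of 3.07.

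**Figure D4:**
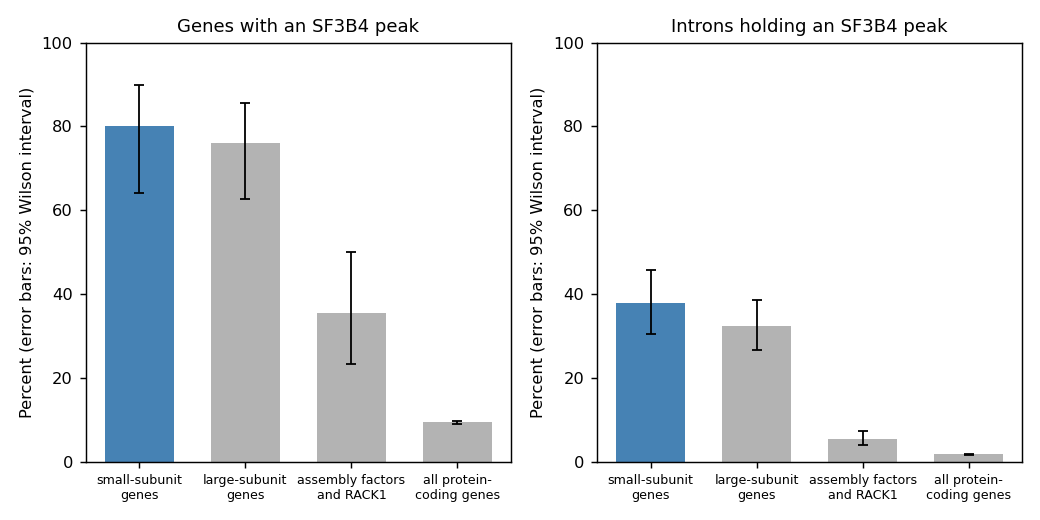
Left, percent of genes with an SF3B4 peak, and right, percent of reference introns that hold one, for the 35 small-subunit genes (blue), the 50 large-subunit genes, RACK1 with the 44 assembly factors, and all 19940 protein-coding genes; bars start at 0 and error bars are 95% Wilson intervals. Small-subunit genes stood at 80.0% of genes and 37.8% of introns, against 9.36% and 1.73% over all genes.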

How the data were processed

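The members and gene lists were chosen with earlier results of these data known. The submitters' processing notes name STAR 2.7.0d, cutadapt 3.4 and the builds hg38 and hg19. Details not given in the sources used here include how peaks were called and filtered, how replicates were joined and what became of multiply mapping reads, which bears on genes with many processed pseudogenes. Each antibody has 1 deposited list of peaks without a header. From their column order and values, its 2 numbers were read as the −log10 p-value and the log2 fold over input, both computed by the authors. A peak was assigned to the genes of its strand that hold its midpoint in GENCODE release 29 (hg38). The reference transcript was the APPRIS principal one, then the one with the longest coding sequence, then the longest. A bound intron holds a peak midpoint. Sequence was rebuilt from 206694 annotated transcripts, with 0 disagreeing bases. Members are named with all their peaks, and intron ends are printed from the bound introns with the 8 highest folds among those with known sequence, outside chromosome 8; some members are counted in the totals but not reported singly here. The other thresholds, windows and transcripts tried are given in the closing section. Python 3.11.15, numpy 2.4.6, scipy 1.17.1 and matplotlib 3.10.9 were used, and the assignment was tested on simulated data.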

Additional observations from a re-analysis of the deposited data

How the results depend on the processing

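No paired analysis was possible because the data hold 1 peak list per antibody and no value per library. Leaving out a library was not possible for the same reason. Raising the −log10 p to at least 10 left 18 of 28 genes with an SF3B4 peak and 20.0% of first introns bound. Raising the log2 fold to at least 4 left 38 of 60 peaks, 38 of 59 bound introns, 27.9% of inner and 14.3% of last introns. The share of peaks 10 to 60 nt upstream of a 3' splice site, 91.7% with all basic transcripts, was 98.3% with reference transcripts and 78.3% with the 5' end of the peak in place of its midpoint. A window of 5 to 50 nt gave pyrimidine shares of 60.9% (bound) and 62.0% (other). The other 26 values stayed within the 95% binomial interval of a share or a median, or within 1.5 times for a count. The limits at a fold of 4 or a −log10 p of 10 for intron length and place, and, for the number of peaks only, the count of 1 peak per gene and value pair, were added after seeing the data. Unknown depth limits what the absence of a peak shows, and sequence was read for 83 of 156 intron ends.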

Other observations

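Small-subunit genes have many processed copies in the genome, which lack introns. The annotation holds 413 pseudogenes named after them, and 0 peaks of either list overlapped one on either strand. No peak of either list lay antisense to a member. Of the 60 SF3B4 peaks in members, 52 shared both of the authors' values with another peak of the list, where 88.5% of all SF3B4 peaks did.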
